A study of Homo sapiens with 4 samples.

Results

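Integrins are cell-surface receptors made of 1 α and 1 β chain, and the 9 genes described here encode the chains that bind collagens and laminins, the main fibres and sheets of the extracellular matrix. ITGA1, ITGA2, ITGA10 and ITGA11 encode the collagen-binding α chains, ITGA3, ITGA6 and ITGA7 the laminin-binding α chains, and ITGB1 and ITGB4 their β partners. The genes were listed by name and chosen by their read counts as well as their function, since earlier results of these data were known. Their difference between treated and control cells is therefore given as a description. Where the test over all genes is quoted for them, nothing is read from its outcome. They were 9 of the 57905 genes counted, and all 9 were among the 16416 that passed the filter on low counts.

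The collagen-binding α chains pair with ITGB1 and carry an inserted domain that holds the collagen helix. The laminin-binding α chains also pair with ITGB1, and ITGA6 pairs in addition with ITGB4, the chain that anchors epithelial cells to laminin through hemidesmosomes. Glioma cells meet laminins around blood vessels and along the brain surface, and binding by these receptors recruits talin and kindlin to the β chain and switches on focal adhesion kinase.

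RNA was sequenced from U87MG, an established human glioblastoma line used at passages 8-10 and labelled wild type, in 2 untreated control samples and 2 samples given 50 nM chaetocin for 24 h. Chaetocin is a fungal metabolite known as an inhibitor of histone lysine methyltransferases. It was dissolved in DMSO while the controls were left untreated, so the compound and its solvent cannot be told apart here. The paper describes cells seeded in wells and treated or left untreated in duplicate. No source used here says whether the 2 samples of a group were independent cultures. The p-values then measure only the spread between these samples, which may be technical.

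Totals ranged from 21241984 to 32590479 reads per sample, and 3 reads corresponded to 0.0921 to 0.141 CPM (reads scaled to a common normalized library size), the unit used throughout. Reads copied by PCR are not independent molecules, so that floor covers counting error only. The second chaetocin sample had reads on 27748 genes against 24174 to 24699 in the other samples. Mitochondrial genes took 3.28% to 4.12% of the reads. Of the 9 listed glioma markers, VIM, CD44 and TNC were abundant, GFAP stood at 0.460 to 1.02 CPM, and SOX2 and S100B had 0 reads in both control samples. The summed glioma markers were 8021 and 6891 CPM in the controls and 5268 and 3188 CPM with chaetocin, and 1 of the 7 that were tested, CHI3L1, was called, as lower. The leukocyte markers summed to 0.205 and 0.209 CPM in the controls and to 2.34 and 2.11 CPM with chaetocin. No read of CD3E was found, and PTPRC and ITGAM were called higher. Both had 0 and 1 reads in the controls. They passed the filter on low counts only through the chaetocin samples, so nothing is read from these calls. Endothelial markers summed to 13.4 and 18.6 CPM in the controls and to 12 and 11.6 CPM with chaetocin, and epithelial markers to 2.38 and 1.95 CPM in the controls and to 3.86 and 3.69 CPM with chaetocin, with none of either list called. Of the epithelial list, KRT5 and KRT14 had 0 reads in all 4 samples, while EPCAM, CDH1 and KRT8 had reads in every sample. Skeletal muscle markers summed to at most 0.591 CPM, with MYOD1 and MYOG at 0 reads in all 4 samples. The part of these marker levels in the values below was not tested.

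The promoters of the 4 collagen-binding genes are printed first because 3 of these genes fell together while the fourth stayed closer to its control level. RefSeq sequences on GRCh38.p14 were matched for 6 of the 9 genes, and those of ITGA3, ITGA7 and ITGB4 were not. Each line gives the 250 bases before the gene's start, 5′ to 3′ on the gene's own strand, in lower case with the motifs that were found in capitals. These starts are those of RefSeq and differ from the GENCODE gene ends given further on, so the windows of ITGA1, ITGA2 and ITGA10 reach past those into the gene. The bases just after the start were found in a transcript for ITGA1, ITGA2 and ITGA10 but not for ITGA11. The windows are chr5:52787666-52787915 on the plus strand for ITGA1, chr5:52989102-52989351 on the plus strand for ITGA2, chr1:145910051-145910300 on the minus strand for ITGA10 and chr15:68432164-68432413 on the minus strand for ITGA11.
ITGA1: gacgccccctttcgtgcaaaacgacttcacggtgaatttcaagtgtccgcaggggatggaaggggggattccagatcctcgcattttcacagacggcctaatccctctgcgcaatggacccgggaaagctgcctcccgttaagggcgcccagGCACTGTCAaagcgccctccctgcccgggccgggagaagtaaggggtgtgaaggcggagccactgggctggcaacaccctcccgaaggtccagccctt
ITGA2: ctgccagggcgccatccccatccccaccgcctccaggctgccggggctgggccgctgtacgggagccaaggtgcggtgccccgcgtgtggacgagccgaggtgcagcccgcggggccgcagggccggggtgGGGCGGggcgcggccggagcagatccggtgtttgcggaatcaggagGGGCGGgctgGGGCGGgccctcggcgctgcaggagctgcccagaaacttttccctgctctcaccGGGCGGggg
ITGA10: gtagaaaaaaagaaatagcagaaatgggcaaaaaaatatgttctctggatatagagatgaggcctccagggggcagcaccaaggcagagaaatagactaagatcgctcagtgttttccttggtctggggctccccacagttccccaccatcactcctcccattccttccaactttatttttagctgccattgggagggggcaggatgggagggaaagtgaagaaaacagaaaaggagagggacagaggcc
ITGA11: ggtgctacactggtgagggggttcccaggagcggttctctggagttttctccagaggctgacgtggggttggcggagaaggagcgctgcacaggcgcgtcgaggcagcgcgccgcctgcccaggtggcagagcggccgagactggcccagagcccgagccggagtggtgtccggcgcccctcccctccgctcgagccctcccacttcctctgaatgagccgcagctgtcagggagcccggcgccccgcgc

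Both strands were searched for 4 motifs, which were the GC box GGGCGG, the AP-1 motif TGANTCA, the TATA box TATAAA and the antioxidant response core TGACNNNGC, where N is any base. The ITGA2 window held 4 GC boxes, a motif present in 42.6% of 35116 promoters of this length. The ITGA1 window held 1 antioxidant response core, present in 10.9% of the promoters, and the windows of ITGA10 and ITGA11 held none of the 4 motifs. The AP-1 motif was in 6.57% and the TATA box in 10.7% of all promoters, and neither was in these 4 windows. ITGA6 and ITGB1 each had 2 windows, which are not printed. Those of ITGA6 held 3 GC boxes in 1 and 1 TATA box in the other. For ITGB1, 1 window held 3 GC boxes and 1 antioxidant response core, and the other 3 TATA boxes. G and C made up 76.4% of the ITGA2 window, 71.2% of that of ITGA11, 62.0% of that of ITGA1 and 48.4% of that of ITGA10, against a median of 58.0% over all promoters. The CG dinucleotide occurred 26 times in ITGA2, 23 times in ITGA11, 16 times in ITGA1 and 1 time in ITGA10, against a median of 11. The 3 genes that fell thus shared none of these 4 motifs, and their windows held from 1 to 26 CG dinucleotides. A match of letters is a description of the sequence, and no binding was measured at these places.

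Chaetocin-treated cells had less RNA of 3 of the 4 collagen-binding chains, ITGA2, ITGA10 and ITGA11, each at 27.3% to 30.6% of its control level. ITGA1, the fourth, was at 75.9% of control. Among the laminin-binding chains ITGA3 was at 46.5% of control, and the remaining values lay on both sides of the control level. In such bulk samples, fewer cells expressing a gene and less RNA per cell cannot be told apart. In edgeR's quasi-likelihood test over all genes, at an adjusted p of 0.05, 4 of the 9 genes were called and all 4 were lower, where 1.85% of all tested genes were called, 0.743% as lower and 1.11% as higher. Because the contrast helped to choose the genes, nothing is read from that count.

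ITGA2, the collagen receptor chain of platelets and epithelia, had the highest level per length of the 4 collagen-binding chains. It lies on chromosome 5 from 52989326 to 53094779 (GRCh38, plus strand), and its level was 275 and 225 CPM in the control samples and 95.6 and 57.5 CPM in the chaetocin samples, from 2044 to 6715 reads. Both treated samples lay below both controls, and the second treated sample was the lower. The log2 fold change, chaetocin minus control, was -1.71 ± 0.24 (SE, n = 2 per group).

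ITGA10, known from cartilage, lies on chromosome 1 from 145891208 to 145910189 on the minus strand. Its level was 7.13 and 7.69 CPM in the controls and 2.53 and 1.52 CPM with chaetocin. The controls lay close together and the treated samples below them, on 54 to 221 reads. It had a log2 fold change of -1.90 ± 0.31, the 29th lowest of all tested genes. ITGA11, the fibroblast receptor for fibrillar collagens, lies on chromosome 15 from 68296533 to 68432162 on the minus strand. It gave 23.2 and 15.6 CPM in the controls and 5.65 and 5.43 CPM with chaetocin. Here the spread lay between the controls, and the treated samples were almost equal. Its log2 fold change was -1.80 ± 0.24, the 39th lowest, and that of ITGA2 was the 47th lowest.

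ITGA1, the receptor chain that prefers basement membrane collagen, lies next to ITGA2 on chromosome 5, from 52787896 to 52959210 on the same strand, with 30.1 kb between the 2 genes. Its level was 52.7 and 45.9 CPM in the controls and 32.0 and 42.8 CPM with chaetocin. Both treated samples were below both controls, but the second lay close to the lower control. A log2 fold change of -0.40 ± 0.18 was not called, and without the second chaetocin sample it was -0.63. Without the first it was -0.20. ITGA1 shares 475 exonic bases with PELO on the same strand, a gene with 1038 to 1668 reads, so reads in that stretch are of uncertain origin. The 2 neighbouring genes thus stood at 75.9% and 30.6% of their control levels.

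**Figure D1:**
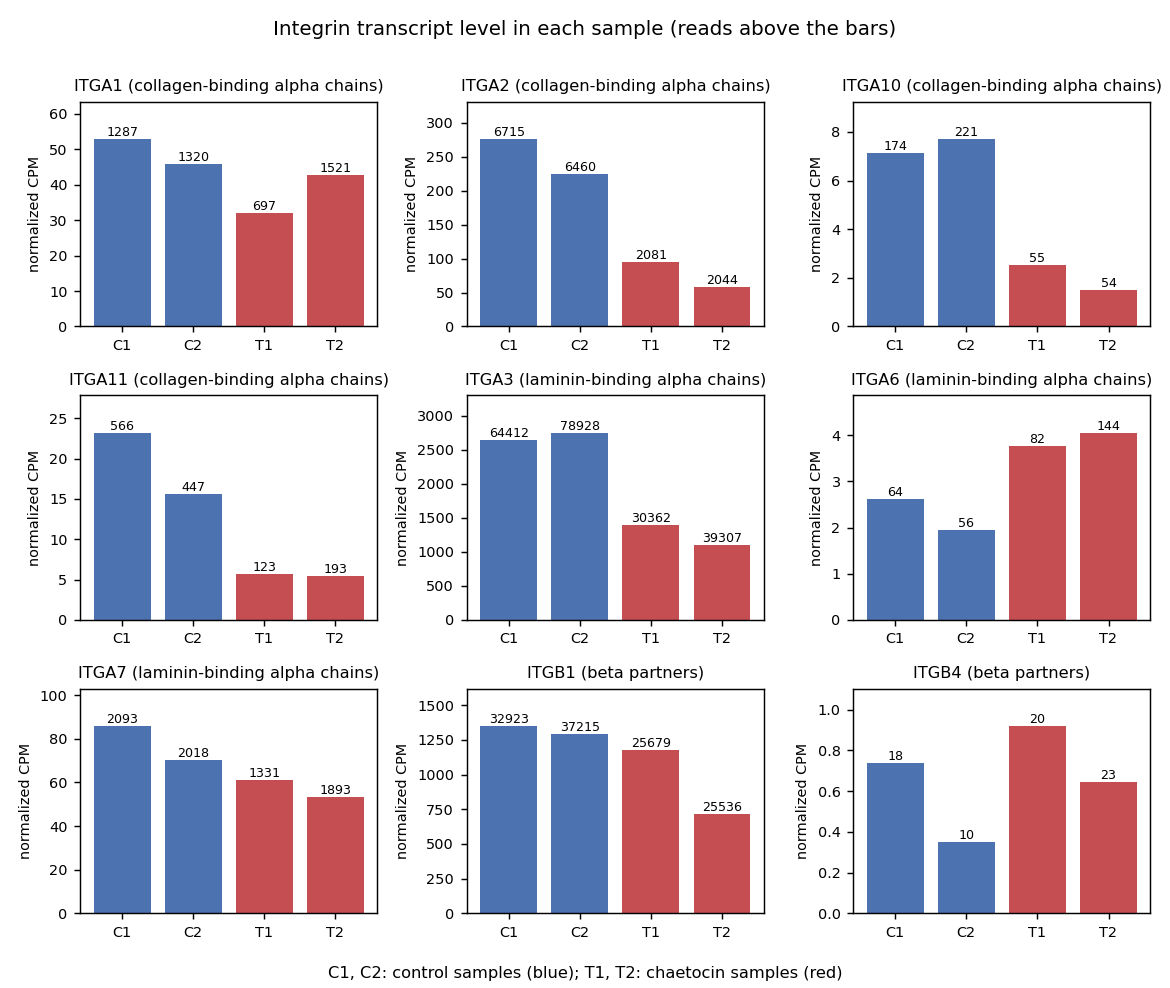
Level of the 9 integrin genes in each of the 4 samples, in normalized CPM on axes that start at 0, with the number of reads above each bar. C1 and C2 are the control samples and T1 and T2 the chaetocin samples. The red bars are well below the blue ones for ITGA2, ITGA10, ITGA11 and ITGA3, are below them by less for ITGA1, and are above them for ITGA6.

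ITGA3, the laminin receptor chain that forms most of the laminin-binding α-chain RNA here, lies on chromosome 17 from 50055968 to 50090481 on the plus strand. Its level was 2639 and 2747 CPM in the controls and 1395 and 1106 CPM with chaetocin. The difference between the groups was far larger than that within them. The log2 fold change was -1.11 ± 0.21, the 240th lowest, and the call was lost without the second control sample, where the value was -1.09, and with a filter of at least 10 reads in every sample.

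ITGA7, known as the laminin receptor chain of muscle, lies on chromosome 12 from 55684568 to 55716043 on the minus strand. It gave 85.8 and 70.2 CPM in the controls and 61.2 and 53.3 CPM with chaetocin. The groups did not overlap, but the gap between them was smaller than the difference between the controls. The difference of -0.45 ± 0.16 on the log2 scale was not called, and without the first chaetocin sample it was -0.55. MYOD1 and MYOG, which define the muscle lineage, had 0 reads in all 4 samples. DES and CKM, also on the muscle list, had 12 and 9 reads in the second chaetocin sample and at most 2 and 1 elsewhere. ITGA7 shares 44 exonic bases with METTL7B on the opposite strand.

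ITGA6 lies on chromosome 2 from 172427354 to 172506282 on the plus strand and was the laminin-binding chain with the lowest level. It gave 2.62 and 1.95 CPM in the controls and 3.77 and 4.05 CPM with chaetocin, on 56 to 144 reads. Both treated samples were above both controls, opposite to ITGA3 and ITGA7. The log2 fold change of 0.78 ± 0.29 was not called. The antisense gene AC078883.1 shares 52 exonic bases with it and had 45 to 61 reads, and no source used here says whether counting used strand. Counts per gene also do not separate the splice forms of these chains.

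ITGB1, the common β partner of all 7 α chains, lies on chromosome 10 from 32900319 to 33005792 on the minus strand. Its level was 1349 and 1295 CPM in the controls and 1180 and 719 CPM with chaetocin. The first treated sample lay near the controls and the second well below them. The log2 fold change was -0.48 ± 0.25 and was not called. It moved from -0.17 without the second chaetocin sample to -0.88 without the first. ITGB1 shares 42 exonic bases with ITGB1-DT on the opposite strand. ITGB4, on chromosome 17 from 75721328 to 75757818 on the plus strand, gave 0.738 and 0.348 CPM in the controls and 0.919 and 0.647 CPM with chaetocin. These rested on 10 to 23 reads, and the groups overlapped. Its log2 fold change of 0.52 ± 0.55 was smaller than its own error, and it was 1.13 without the first control sample and 0.058 without the second.

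**Figure D2:**
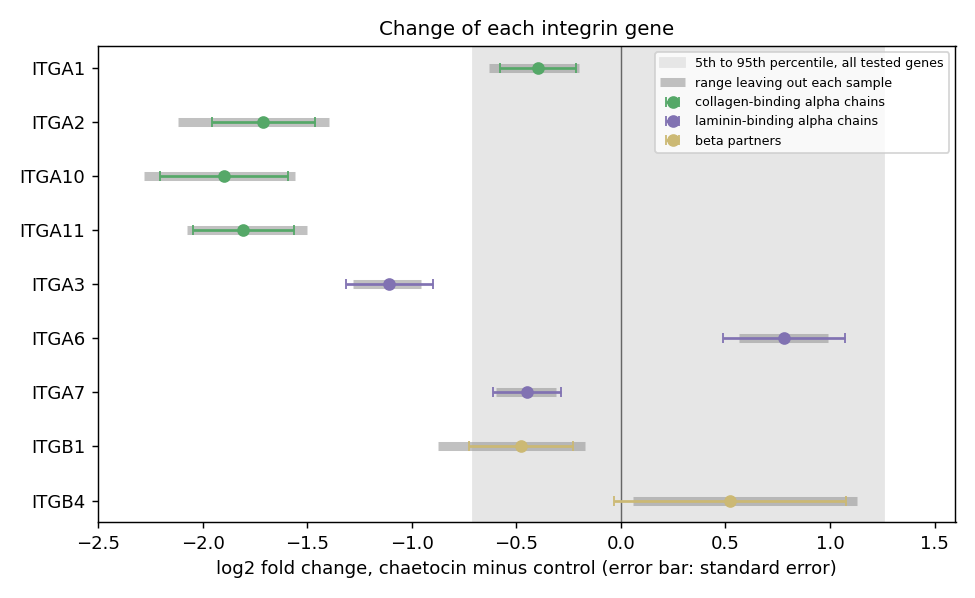
Log2 fold change of each integrin gene, chaetocin minus control, with its standard error, coloured by class. The grey bar at each gene spans the values obtained by leaving out each sample in turn, and the shaded band spans the 5th to the 95th percentile of all tested genes, -0.71 to 1.26. ITGA2, ITGA10, ITGA11 and ITGA3 lie below the band, and the other 5 genes lie inside it.

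Set side by side, the 4 collagen-binding chains had a median log2 fold change of -1.76, with 4 of 4 below 0 and 3 called. The 5 laminin-binding chains and β partners had a median of -0.45, with 3 of 5 below 0 and 1 called. Without the second chaetocin sample the 2 medians were -1.48 and -0.17. Over all tested genes the median was 0.01, 49.1% of the values were below 0, and 1.85% were called, 0.743% as lower. Nothing is read from the calls in the 2 classes, as the contrast helped to choose the genes. ITGA1 at -0.40 lay inside the range of the second class and ITGA3 at -1.11 between ITGA1 and the other collagen-binding chains, so the classes did not separate gene by gene. Of the 9 genes, 8 did not overlap between the groups in CPM, all but ITGB4, where 52.7% of all tested genes did not overlap.

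To compare levels between genes, CPM were divided by the length of each gene's exons in kilobases. In control cells ITGA3 stood first at 275 CPM per kb, followed by ITGB1 at 220, ITGA2 at 31.6 and ITGA7 at 12.2 CPM per kb. ITGA1 at 2.66, ITGA11 at 1.78, ITGA10 at 1.17, ITGA6 at 0.350 and ITGB4 at 0.0803 CPM per kb followed. No 2 neighbours in this order overlapped between the control samples, and the order was the same by the longest transcript of each gene. With chaetocin the samples of ITGA3 and ITGB1 overlapped by either length. Those of ITGA2 and ITGA7 overlapped by all exons, while by the longest transcript ITGA7, at 14.8 and 12.9 CPM per kb, lay above ITGA2 at 12.2 and 7.31 CPM per kb. ITGA6, at 0.577 and 0.620 CPM per kb in the treated samples, stood above ITGA11 at 0.520 and 0.50 and ITGA10 at 0.40 and 0.24 CPM per kb, without overlap and against their order in the controls.

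**Figure D3:**
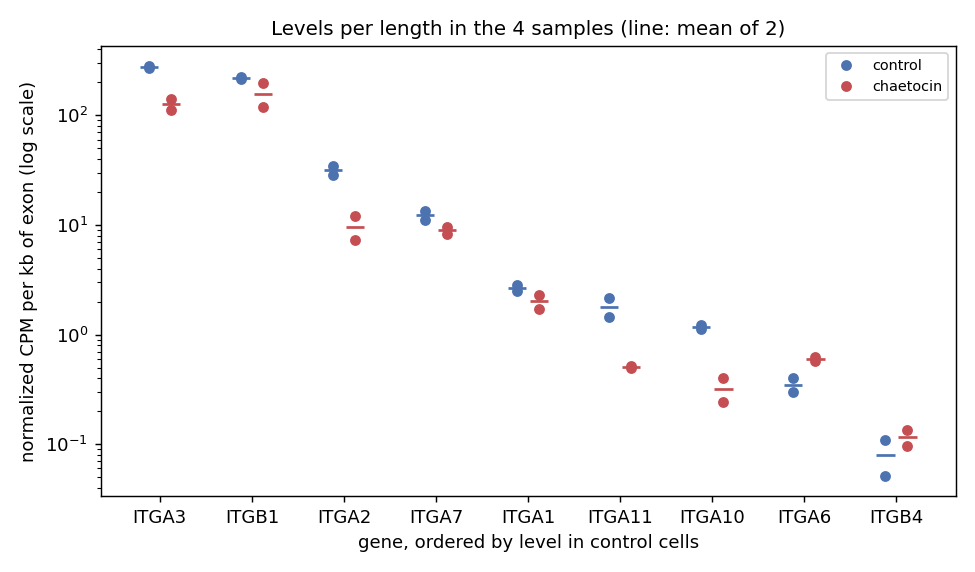
Level of each gene per kilobase of exon in the 4 samples, on a logarithmic axis, with genes ordered by their mean in control cells and with the mean of the 2 samples as a line. The control levels span from 0.0803 CPM per kb for ITGB4 to 275 for ITGA3, and in the chaetocin samples ITGA2 overlaps ITGA7 while ITGA10 and ITGA11 lie below ITGA6.

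Added up per length, the collagen-binding α chains came to 40.9 and 33.5 CPM per kb in the controls and to 14.7 and 10.3 CPM per kb with chaetocin. The laminin-binding α chains came to 283 and 291.5 CPM per kb in the controls and to 152.5 and 122 CPM per kb with chaetocin. Both sums were lower in each treated sample than in each control. The collagen-binding share of the 7 α chains was 12.6% and 10.3% in the controls and 8.81% and 7.81% with chaetocin, so laminin-binding RNA made up most of it in every sample. Within the collagen-binding class the part of ITGA1 was 6.95% and 7.38% in the controls and 11.7% and 22.3% with chaetocin, while that of ITGA2 went from 85.1% and 84.7% to 82.1% and 70.5%. ITGA2 was 12.2 and 11.5 times as abundant as ITGA1 per length in the controls and 7.01 and 3.15 times with chaetocin. By the longest transcript in place of all exons, these ratios were 7.13 and 6.69 in the controls and 4.08 and 1.84 with chaetocin, with the same order of samples. The collagen-binding share of the 7 α chains was then 7.19% and 5.82% in the controls and 5.10% and 4.8% with chaetocin, and the part of ITGA1 in the collagen-binding class was 11.3% and 11.9% in the controls and 18.4% and 32.9% with chaetocin. The laminin-binding sum was then 561 and 579 CPM per kb in the controls and 301 and 240 CPM per kb with chaetocin. The summed 7 α chains stood at 1.44 and 1.51 times the level of ITGB1 in the controls and at 0.852 and 1.10 times with chaetocin. By the longest transcript these were 1.70 and 1.80 times in the controls and 1.02 and 1.33 times with chaetocin, so whether the sum lay below ITGB1 in the first treated sample depended on the length used.

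**Figure D4:**
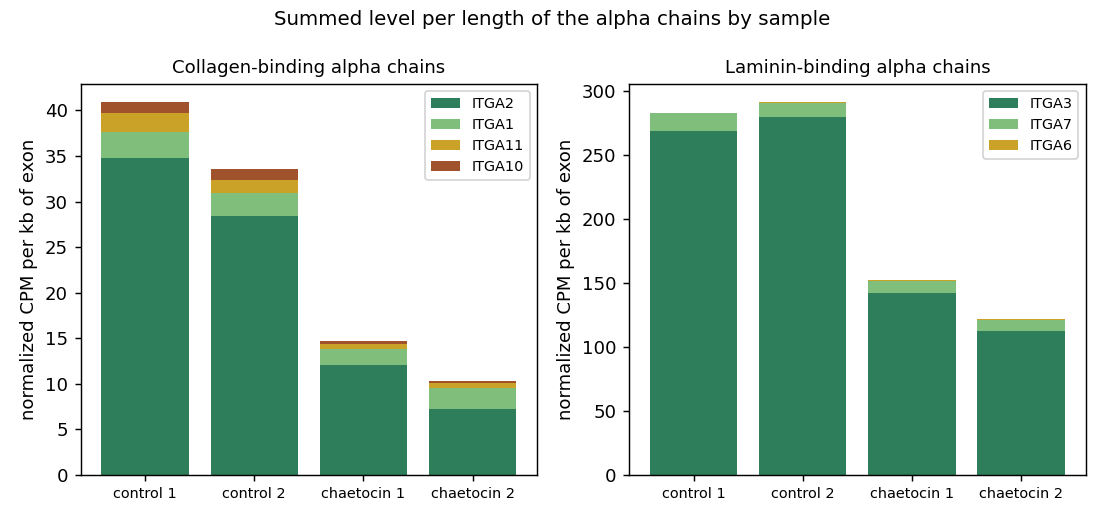
Summed level per kilobase of exon of the collagen-binding α chains (left) and the laminin-binding α chains (right) in each sample, stacked by gene on axes that start at 0 and differ in scale. ITGA2 and ITGA3 form most of their bars in every sample, and the part of ITGA1 in the left bars is 6.95% and 7.38% in the controls and 11.7% and 22.3% with chaetocin.

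The genes that work beside these receptors were taken as 7 lists of 119 genes, of which 108 were tested. These lists too were drawn up with earlier results known. Of the 108 genes 85 were below 0, with a median log2 fold change of -0.35, against 49.1% and 0.01 over all genes. In edgeR's test 3 were called, or 2.78% against the 1.85% of all genes. Without the first control sample 6 were called and without the second 10, where 1.74% and 2.10% of all genes were called. Without the first chaetocin sample 47 were called and without the second 26, where 17.0% and 9.82% of all genes were called. Over all genes 20.3% had an unadjusted p under 0.05 and DESeq2 called 5.53%, shares against which the counts of each list are to be read.

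Collagens, the ligands of the first class, had 17 of 22 genes tested and 12 of them below 0, with a median of -0.60 and 0 called by edgeR, while 10 had an unadjusted p under 0.05 and DESeq2 called 5. COL6A3, a chain of microfibrillar collagen VI, was at 2632 and 2448 CPM in the controls and at 1287 and 788 CPM with chaetocin. COL6A2, a partner in the same collagen, was at 641 and 530 CPM in the controls and at 639 and 420 CPM with chaetocin. Chains of 1 collagen thus had unlike values. Neither was called by edgeR, and COL6A3 was called by DESeq2. Laminins and their basement membrane partners had 14 of 15 genes tested and 10 below 0, with a median of -0.43 and 0 called by edgeR, while 8 had an unadjusted p under 0.05 and DESeq2 called 5. LAMC1, the γ chain of most laminins, was at 542 and 479 CPM in the controls and 307.5 and 269 CPM with chaetocin. LAMB1, a β chain that joins it, was at 459 and 421.5 CPM in the controls and 276 and 204 CPM with chaetocin. Both had every treated sample below every control, and both were called by DESeq2 and not by edgeR.

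Of the other receptors for collagen and laminin, 9 of 10 tested genes were below 0, edgeR called 1 and DESeq2 called 2. DDR2, a receptor tyrosine kinase for fibrillar collagen, was at 369 and 406 CPM in the controls and fell to 231 and 215 CPM (log2 fold change -0.80 ± 0.16, adjusted p = 0.0488 in edgeR). That call was lost without the first control sample, without the second, with upper-quartile factors and with a filter of at least 10 reads in every sample. Tetraspanins and hemidesmosome proteins had 9 of 9 genes below 0, with a median of -0.36 and 0 called by edgeR or DESeq2, while 2 had an unadjusted p under 0.05, near the share over all genes. Their most abundant members, DST and PLEC, which link integrins to the cytoskeleton, had log2 fold changes of -0.38 ± 0.20 and -0.35 ± 0.17.

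On the inner side of the membrane, 19 of 24 talin, kindlin and adaptor genes were below 0, with a median of -0.42. TNS1, a tensin that binds the β-chain tail and actin, was at 24.5 and 23.1 CPM in the controls and fell to 11.8 and 11.5 CPM (log2 fold change -1.03 ± 0.17, adjusted p = 0.0337 in edgeR). In edgeR it was the 1 called gene of its list, a call lost without the first control sample, and DESeq2 called 4 genes of the list. The focal adhesion kinase, Src and signalling genes had 18 of 21 values below 0, a median of -0.21 and 0 called by edgeR or DESeq2, while 4 had an unadjusted p under 0.05, near the share over all genes. CAV1, the caveolin that scaffolds signalling at the membrane, was at 1432 and 1038 CPM in the controls and at 1105 and 404 CPM with chaetocin, so the groups overlapped. RHOA, a GTPase that governs contractility, was at 531 and 521 CPM in the controls and at 617.5 and 418 CPM with chaetocin, on both sides of the controls.

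Of the 17 other integrin chains 13 were tested, 8 of them were below 0, and the median was -0.09. DESeq2 called 5 of them and edgeR 1. The gene called by edgeR, ITGAM, encodes a leukocyte integrin chain and rose from 0 and 1 reads in the controls to 24 and 29 reads with chaetocin (adjusted p = 0.0341 in edgeR). It passed the filter on low counts only through the chaetocin samples, and a filter of at least 10 reads in every sample removed it. It belongs to the leukocyte markers whose sum is given above, and ITGB2, its β partner, had 0 reads in the controls and 4 and 0 reads with chaetocin.

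**Figure D5:**
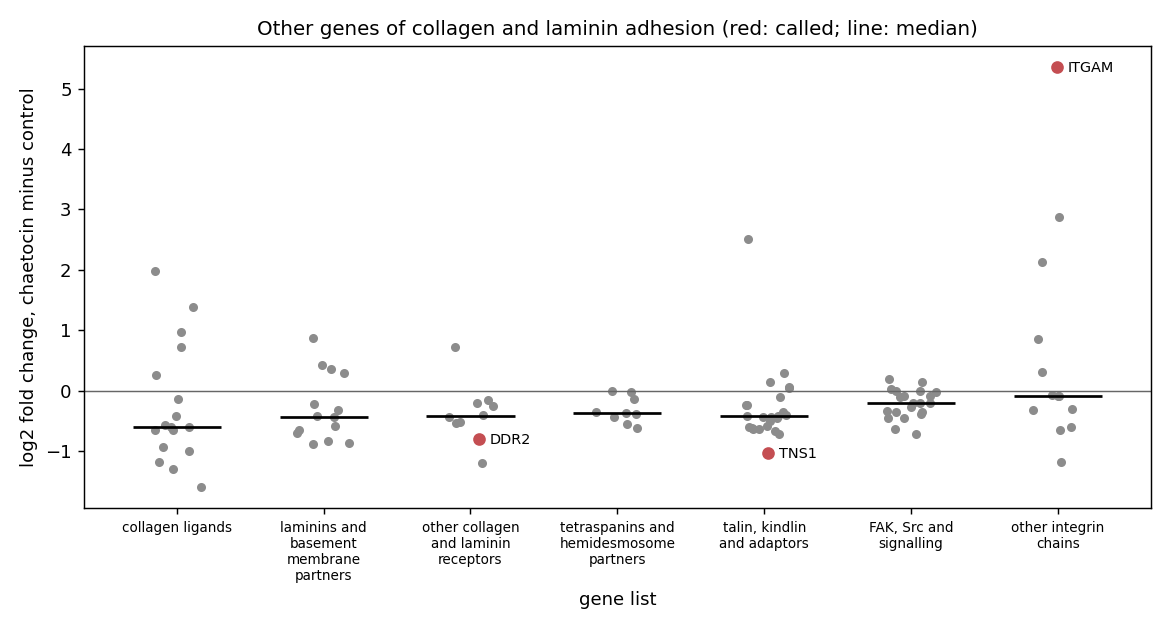
Log2 fold change, chaetocin minus control, of each tested gene of the 7 lists, with the list median as a line and called genes in red. The medians lie between -0.60 for the collagens and -0.09 for the other integrin chains, and the 3 called genes are DDR2, TNS1 and ITGAM.

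The genes whose pattern was most like the mean of the 4 collagen-binding chains were looked for among 12307 other genes with a mean of at least 1 log2 CPM, by the root mean square distance of log2 levels, centred on the control mean, over the 4 samples. The 5 closest were ENSG00000261786, which is listed by identifier alone, CRIM1, ALPK2, NEGR1 and OLFML2A, with distances of 0.0676, 0.0699, 0.0918, 0.0920 and 0.0944. CRIM1, a transmembrane protein that binds growth factors of the BMP family, had 258 ± 14.2 CPM in the controls and 99.4 ± 17.1 CPM with chaetocin (SD, n = 2). NEGR1, a neuronal cell adhesion molecule, had 27.7 ± 0.901 CPM in the controls and 10.6 ± 0.751 CPM with chaetocin. All 5 were lower with chaetocin, which the way they were found required.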

How the data were processed

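The authors deposited raw read counts per gene, 1 table per sample, listed by Ensembl identifier and without normalization. Libraries were made from polyadenylated RNA with 15 cycles of PCR and read as single ends of 50 bases. The submitters' processing notes name cutadapt, TopHat2, TopHat, SAMtools and GRCh37, and the counting tool and its strand setting are not given in the sources used here. Samples were grouped by their labels.

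From the counts, genes were filtered with filterByExpr of edgeR 4.0.16 at its defaults (a minimum count of 10) in R 4.3.3, normalized by TMM and tested by the quasi-likelihood method in a robust fit that used no replicate block. P-values were adjusted after Benjamini and Hochberg, and a gene was called at an adjusted p of 0.05. The coefficient of variation between replicates was 16.8%. The standard error of a log2 fold change was its size divided by the root of F. The method was tested on simulated data. DESeq2, here in version 1.42.0, was an alternative, as were 2 other scalings, 2 other filters, the replicate block and fits without each sample.

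Symbols, positions and exon lengths were looked up by identifier in GENCODE release 29 on GRCh38, which paired 52338 identifiers with a symbol. No coordinates of the authors' build were used. The members and the gene lists were chosen with earlier results of these data known. Of each list, every called gene is named or, where none was called, the 2 with the highest mean CPM, and of the genes most like the collagen-binding chains, 5.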

Additional observations from a re-analysis of the deposited data

How the results depend on the processing

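None of the 9 genes and neither class median changed direction under the 10 alternatives, and 7 of 90 values for single genes moved by more than the spread between replicates. With all 4 samples kept, 3 of the 9 genes were called under the 10-read filter, where 1.34% of all tested genes were called. Adding the replicate block gave 5 of the 9, where that share was 12.7%. The main fit and DESeq2 each called 4, at shares of 1.85% and 5.53%. Nothing is read from these counts, as the contrast helped to choose the genes. Genes called higher and lower over the whole table, 182 and 122, were 787 and 759 without a filter, 114 and 80 with at least 10 reads in every sample, 447 and 461 by DESeq2, 1036 and 1053 with a replicate block, and 246 and 88 with upper-quartile factors, which moved the split towards higher. Leaving out each sample gave 215 to 1332 higher and 97 to 1673 lower. The 3 called genes of the 7 lists became 33 without a filter, 1 with at least 10 reads in every sample, 21 by DESeq2, 41 with the replicate block and 6 to 47 when a sample was left out. Of all genes, 4.88%, 1.34%, 5.53% and 12.7% were called in the first 4 of these settings. The class medians ranged from -1.97 to -1.48 for the collagen-binding chains and from -0.55 to -0.17 for the laminin-binding chains and β partners when a sample was left out. The deviations of same-numbered samples correlated with r = 0.123 across genes, and with 2 pairs the numbers were not taken as pairing; the block added ITGA7 to the called genes. In fits that leave 1 sample in a group, that sample is assumed to vary like the other group. For all these changes the cause was not tested. The fewest reads were those of ITGB4, at 10 to 23 per sample.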

Other observations

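Some further genes of the 7 lists, which edgeR did not call, are named here after their values were seen. ITGA5, the α chain of the fibronectin receptor, was at 949 and 946.5 CPM in the controls and at 519 and 322 CPM with chaetocin, with an adjusted p of 0.0514 in edgeR's test. ITGB7 was at 0.778 and 0.418 CPM in the controls and at 3.12 and 2.14 CPM with chaetocin, and ITGB6 at 0.164 and 0.104 CPM against 1.06 and 0.957 CPM, with adjusted p-values of 0.0528 and 0.0514. LAMA3, the laminin α chain of epithelial basement membranes, had a log2 fold change of 0.88 ± 0.23, opposite in sign to LAMA5 at -0.86 ± 0.22, and both were called by DESeq2 and not by edgeR.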
